A study of Rattus norvegicus with 22 samples.

Results

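The 7 leukocyte chemokine receptors Ccr1, Ccr2, Ccr7, Cxcr2, Cxcr3, Cxcr4 and Ackr3 were followed across injury and tamoxifen (TMX) treatment in the rat spinal cord. They were chosen by name from the annotation of the array, and each of the 7 was represented by 1 transcript cluster, the set of probes that reads 1 gene, out of 23188 clusters in all, of which 15049 carried 1 gene symbol. The cord of adult male Long-Evans rats had been contused at thoracic level 9 by a rod of 10 g dropped from 50 mm (SCI), or the rats had undergone sham surgery of the soft tissue only, without removal of bone over the cord. At 30 min the rats received 1 intraperitoneal injection, either of 5 mg/kg TMX (TMX+) or of the vehicle alone, a mix of ethyl alcohol with corn oil (TMX-). The cord was collected at 24 h as a piece 20 mm long. Each array held the RNA of 1 rat, with 6 rats in SCI/TMX+, 5 in SCI/TMX-, 6 in Sham/TMX+ and 5 in Sham/TMX-. The sham rats did not have the bone removed, so injury and opening of the spine cannot be told apart between SCI and sham. The dura was taken off and the piece of cord was divided sagittally before freezing. The tissue was not sorted into cell types, and fewer cells of a type and less RNA per cell cannot be told apart.

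Chemokines are small secreted proteins that steer leukocytes along gradients, and their receptors are membrane proteins that signal through inhibitory G proteins, G beta-gamma subunits and Rac to the cytoskeleton. Ccr1 is carried by monocytes, macrophages and neutrophils and binds Ccl3, Ccl5 and Ccl7, among others. Ccr2 brings inflammatory monocytes out of the bone marrow towards Ccl2 and Ccl7, and Cxcr2 brings neutrophils towards Cxcl1 and Cxcl2. Cxcr3 is a receptor of activated T and NK cells for the interferon-induced chemokines Cxcl9, Cxcl10 and Cxcl11, and Ccr7 guides dendritic cells and naive T cells to lymph nodes through Ccl19 and Ccl21. Cxcr4 is the signalling receptor of Cxcl12, while Ackr3 is an atypical receptor that takes up Cxcl12 and Cxcl11 without the usual G protein signal.

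The genes of Ccr1 and Ccr2 lie on chromosome 8 of the rat genome in the RefSeq annotation of build GRCr8, with the gene of Ccr3 next to Ccr1. Windows of 250 bases before the start position taken for each gene were available from RefSeq for 6 of the 7 receptors, all but Ccr7. For Ccr2 and Ackr3 this position was not the outer end of the annotated gene, and their windows lay wholly or partly inside it. Those of Ccr1 and Ccr2 are printed because these were the receptors that passed the thresholds for injury, and those of Cxcr4 and Ackr3 because they share the ligand Cxcl12. They were taken from chr8:132439267-132439516 (minus strand), chr8:132611953-132612202 (plus strand), chr13:42634289-42634538 (minus strand) and chr9:98247104-98247353 (plus strand). Each reads 5′ to 3′ in the direction of the gene. Capitals mark matches to GAGGAA, which is a core motif of ETS factors, and to the TATA box, for which the letters TATAAA were searched.
Ccr1: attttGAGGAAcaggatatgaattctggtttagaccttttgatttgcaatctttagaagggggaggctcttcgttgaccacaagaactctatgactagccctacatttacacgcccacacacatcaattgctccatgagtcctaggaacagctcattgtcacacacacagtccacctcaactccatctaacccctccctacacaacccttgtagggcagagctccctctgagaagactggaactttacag
Ccr2: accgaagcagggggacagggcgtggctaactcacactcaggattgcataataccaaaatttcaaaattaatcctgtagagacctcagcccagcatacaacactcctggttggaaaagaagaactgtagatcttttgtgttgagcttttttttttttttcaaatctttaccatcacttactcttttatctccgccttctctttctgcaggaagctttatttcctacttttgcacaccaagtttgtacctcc
Cxcr4: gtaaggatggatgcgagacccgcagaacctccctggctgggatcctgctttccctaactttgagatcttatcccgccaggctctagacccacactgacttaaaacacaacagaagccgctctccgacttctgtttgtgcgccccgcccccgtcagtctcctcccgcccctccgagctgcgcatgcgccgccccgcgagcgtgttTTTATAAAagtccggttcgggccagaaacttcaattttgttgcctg
Ackr3: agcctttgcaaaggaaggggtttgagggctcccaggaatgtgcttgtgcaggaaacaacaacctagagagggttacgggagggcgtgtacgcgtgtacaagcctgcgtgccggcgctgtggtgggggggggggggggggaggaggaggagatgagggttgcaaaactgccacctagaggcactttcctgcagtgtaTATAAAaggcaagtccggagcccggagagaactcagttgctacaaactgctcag

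Of 5 motifs searched on both strands, GAGGAA was found in the window of Ccr1, at position -245 counted back from the end of the window. Of the 33469 windows of this length, 23.3% held it. TATAAA was found in the windows of Cxcr4 and Ackr3, at positions -44 and -54 from the end of the window, and 12.9% of all windows held it. In Cxcr4 another match on the opposite strand, at position -46, overlapped the first, and the run of capitals joins both. The kappaB motif, GGGA and TTCC with any 2 bases between them (1.08% of all windows), the STAT letters TTCNNNGAA (7.67%) and the hypoxia response core ACGTG (16.6%) were found in none of the 6 windows. The window of Cxcr4 held 18 CpG pairs and that of Ackr3 held 9, against 2 in Ccr1, 3 in Ccr2, 1 in Cxcr2 and 5 in Cxcr3 and a median of 5 over all windows. All 250 bases of the window of Ccr2 and 54 bases of that of Ackr3 lay inside the annotated extent of the gene itself. These were the last 54 bases of the Ackr3 window, so its TATAAA match lay inside the annotated gene. For Ccr2 no bases outside the annotated gene were searched. These matches describe letters only, and binding was not measured.

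Array medians lay between 5.41 and 5.47 on the log2 scale of signal, and the average signal of each receptor was below 5.46, the median over all clusters. The tissue label was borne out by the signal of neuronal markers, whose mean was between 8.50 and 9.29 in every rat, and of oligodendrocyte markers, between 10.47 and 10.98. Both lists were lower after injury. Neuronal markers averaged between 8.50 and 8.82 in the SCI rats and between 9.06 and 9.29 in the sham rats. Oligodendrocyte markers averaged between 10.47 and 10.68 in the SCI rats and between 10.73 and 10.98 in the sham rats. Markers of monocytes and macrophages (14 of 15 listed were measured) averaged between 6.61 and 7.01 in the SCI rats and between 5.30 and 5.66 in the sham rats. Neutrophil markers (14 of 16) averaged between 4.49 and 4.98 in the SCI rats and between 3.54 and 3.99 in the sham rats. Microglial markers (7 of 10) ran the other way, between 5.54 and 6.10 in the SCI rats and between 6.46 and 6.93 in the sham rats. Red blood cell markers (4 of 5) averaged between 7.29 and 8.40 in the SCI rats and between 5.22 and 6.36 in the sham rats. Replicates 1 and 2 of SCI/TMX- stood apart on the second principal component of all clusters, at 23.0 and 41.7, against -23.7 to 3.12 in the other 9 SCI rats. An array gives no true zero, so absence of a transcript cannot be read from a low signal.

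**Figure D1:**
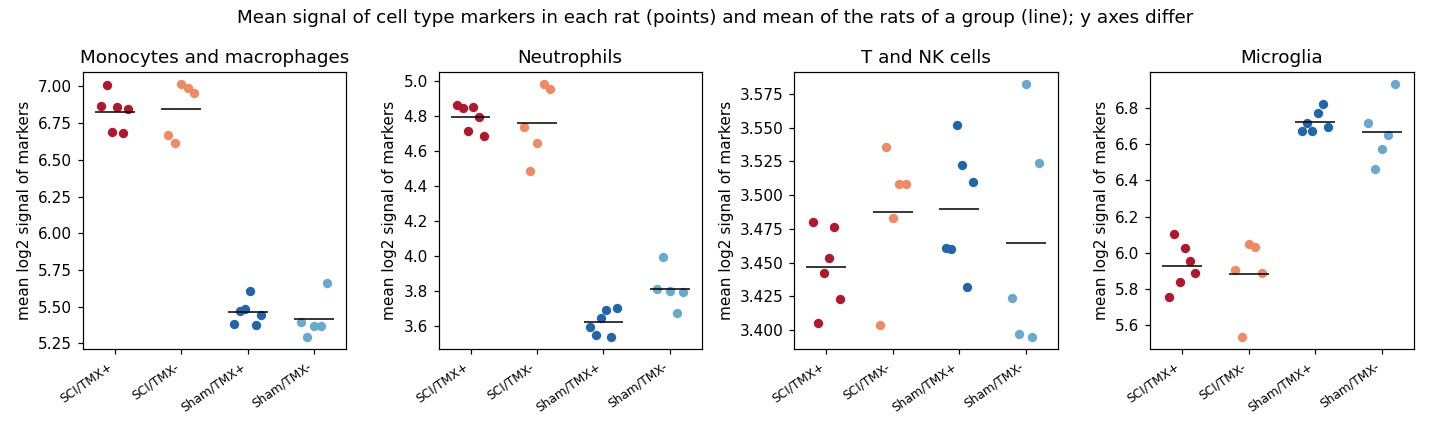
Mean log2 signal of the marker genes of 4 cell types in each rat (points), with the mean of the rats of each group (line) and y axes that differ between panels. Monocyte and neutrophil markers lay higher in every SCI rat than in every sham rat, microglial markers lay lower, and the mean of the T and NK cell markers lay between 3.40 and 3.58 in every rat.

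Ccr1, Ccr2, Cxcr2 and Ackr3 were higher in the injured cord with and without TMX, and Cxcr3 was higher with TMX and close to the threshold without it. Ccr1 rose most, 6.31-fold in SCI/TMX+ over Sham/TMX+ and 7.80-fold in SCI/TMX- over Sham/TMX-. Ccr2, Cxcr2, Ackr3 and Cxcr3 differed by less than 3-fold, and neither Ccr7 nor Cxcr4 passed the test in either comparison. The methods of the study set 2 thresholds for injury, 0.05 on the adjusted p and 1 on the size of the log2 fold change. At these, only Ccr1 was called in SCI/TMX+ against Sham/TMX+, 1 of 7, where 1.93% of all clusters were called higher. Ccr1 and Ccr2 were called in SCI/TMX- against Sham/TMX-, 2 of 7, where 1.98% of all clusters were called higher. On the adjusted p alone, whatever the fold, the same 5 receptors were called in both comparisons, against 14.3% of all clusters higher with TMX and 12.8% without it. Without TMX, the adjusted p of Cxcr3 was not under 0.05 in 19 of 31 alternative settings, 15 of them with 1 of the 22 arrays left out (range 0.0138 to 0.234), so that 4 of the 7 receptors remained there. Ccr1, Ccr2, Cxcr2 and Ackr3 kept the call in all 31 settings of both comparisons, and Cxcr3 did so with TMX. For Ccr2 with TMX the adjusted p of limma ran from 0.000151 to 0.0492 over these settings, at its highest close to the threshold. In 4 of the 7, Ccr1, Ccr2, Cxcr2 and Ackr3, the groups did not overlap in either comparison, while 9.16% of all clusters lay wholly higher with TMX and 8.96% without it. The median log2 difference of the 7 receptors was 0.77 with TMX and 0.59 without it, and that of all clusters was -0.02 and -0.01. All p-values across genes are those of limma with the adjustment of Benjamini and Hochberg over all clusters. These 2 comparisons have no array in common.

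**Figure D2:**
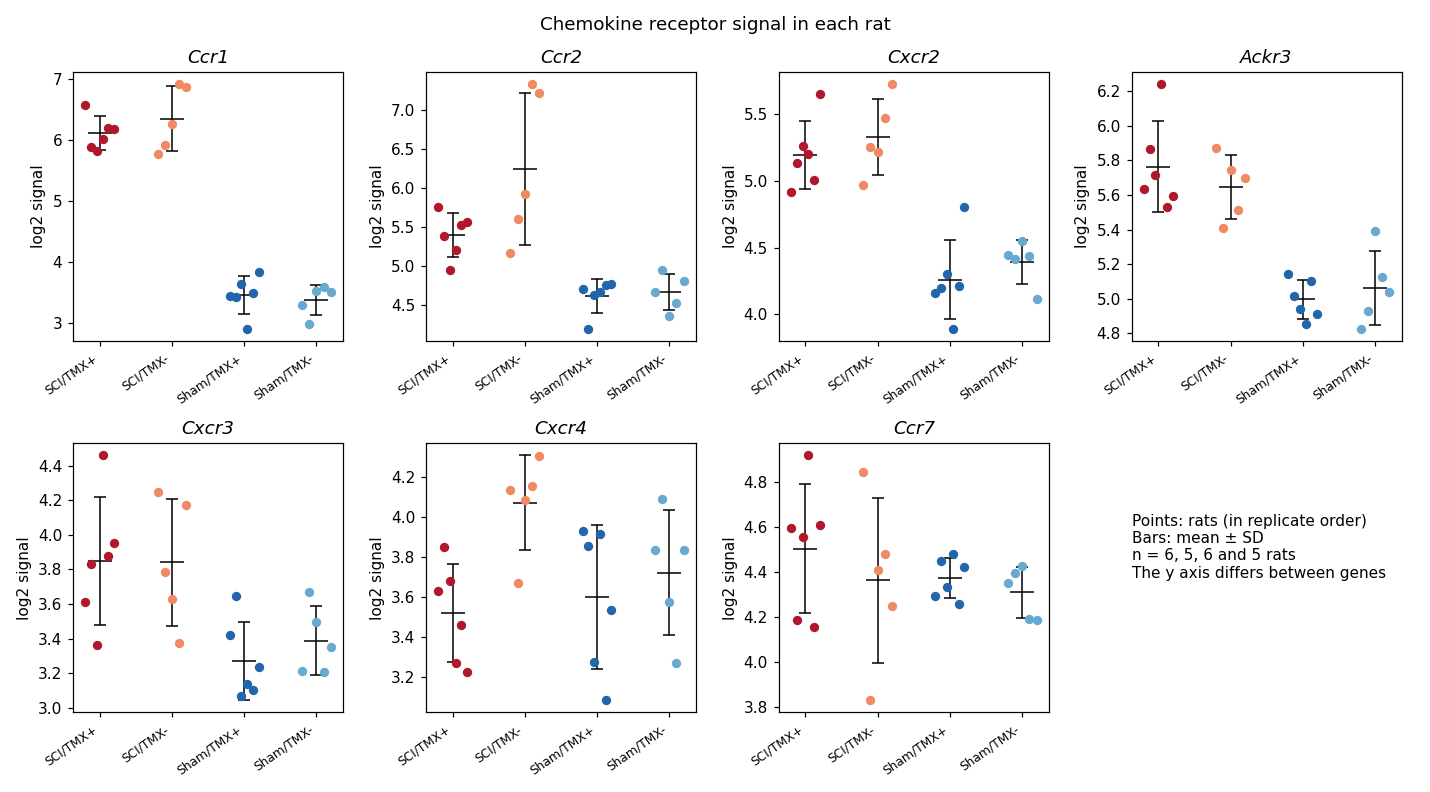
Log2 signal of each receptor in each rat (points, in replicate order), with mean and SD of each group of 6, 5, 6 and 5 rats, and y axes that differ between genes. All SCI rats lie above all sham rats for Ccr1, Ccr2 falls into that pattern except for 1 SCI/TMX+ rat at 4.95 beside a Sham/TMX- rat at 4.96, and Ccr7 overlaps between all groups.

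Among the receptors of CC chemokines, Ccr1 ranged from 5.81 to 6.58 in SCI/TMX+ (median 6.11), against 2.91 to 3.83 in Sham/TMX+ (median 3.47). In SCI/TMX- the 5 rats had 5.76, 5.92, 6.26, 6.92 and 6.87, against 3.31, 2.98, 3.52, 3.59 and 3.51 in Sham/TMX-. The lowest injured rat was thus far above the highest sham rat, and replicates 4 and 5 of SCI/TMX- were the highest of all 22. The group means were 6.11 ± 0.28 in SCI/TMX+ (SD, n = 6) and 3.46 ± 0.31 in Sham/TMX+ (SD, n = 6). The difference of 2.66 on the log2 scale (SE 0.18) had an adjusted p of 2.5e-11 by limma. Without TMX the means were 6.35 ± 0.53 in SCI/TMX- (SD, n = 5) and 3.38 ± 0.25 in Sham/TMX- (SD, n = 5), a difference of 2.96 (SE 0.20) with an adjusted p of 2.6e-11 by limma.

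Ccr2 ranged from 4.95 to 5.76 in SCI/TMX+ (median 5.46), against 4.20 to 4.77 in Sham/TMX+ (median 4.69). In SCI/TMX- the 5 rats had 5.16, 5.61, 5.93, 7.33 and 7.21, against 4.67, 4.96, 4.36, 4.54 and 4.81 in Sham/TMX-. The groups did not overlap in either comparison, but replicates 4 and 5 of SCI/TMX- stood more than 1 log2 unit above the other rats of all groups. With TMX the difference was 0.78 (SE 0.25, adjusted p = 0.0186 by limma), a fold of 1.71 that stayed under the minimum. Without TMX it was 1.58 (SE 0.28, adjusted p = 7.67e-05 by limma), a fold of 2.99. The fit used 1 spread for all groups, so these SEs do not reflect the wider spread of SCI/TMX-. The SD of Ccr2 was 0.97 in SCI/TMX-, against 0.29 in SCI/TMX+, 0.21 in Sham/TMX+ and 0.23 in Sham/TMX-. The cluster that reads Ccr2 is one that the array design lists as not mapped to a chromosome, while the annotation gives it this symbol.

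The group means of Ccr7 lay close together, at 4.50 ± 0.29 in SCI/TMX+ (SD, n = 6) and 4.37 ± 0.09 in Sham/TMX+ (SD, n = 6). The means without TMX were 4.36 ± 0.37 in SCI/TMX- (SD, n = 5) and 4.31 ± 0.11 in Sham/TMX- (SD, n = 5). The ranges overlapped, and the differences of 0.13 (95% confidence interval from -0.14 to 0.40, adjusted p = 0.495) and 0.05 (from -0.24 to 0.35, adjusted p = 0.83) did not pass the test in limma. The interval leaves room for a rise of Ccr7 of up to 0.40 with TMX.

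Among the receptors of CXC chemokines, Cxcr2 ranged from 4.92 to 5.65 in SCI/TMX+ (median 5.17), against 3.89 to 4.80 in Sham/TMX+ (median 4.21). In SCI/TMX- the rats had 4.97, 5.25, 5.22, 5.47 and 5.73, against 4.44, 4.41, 4.55, 4.44 and 4.11 in Sham/TMX-. Every injured rat was above every sham rat, and replicate 6 was the highest of both TMX+ groups. The log2 difference was 0.94 in both comparisons, with SE 0.14 and an adjusted p of 6.33e-06 with TMX and SE 0.15 and an adjusted p of 2.59e-05 without it by limma. Cxcr2 thus passed the test on p and fell just short of the minimum log2 fold change of 1. Leaving out Sham/TMX+ replicate 6 gave 1.05 with TMX, and leaving out SCI/TMX- replicate 1 gave 1.03 without it, which put Cxcr2 past both thresholds. Beside Ccr1, Ccr2 and Cxcr2, monocyte and macrophage markers were called higher for 8 of 14 with TMX and 9 of 14 without it. Neutrophil markers were called higher for 5 of 14 and 4 of 14, with S100a9 at 2.56 and 2.57. Of all clusters, 1.93% and 1.98% were called higher. Not all markers rose: Csf1r differed by -0.13 and -0.29, Adgre1 by -0.28 and -0.26 and Ltf by -0.04 and -0.13. Camp differed by 0.06 and -0.05, and Prtn3 by 0.01 and -0.05. None of these had an adjusted p under 0.05 by limma. Red blood cell markers were called higher for 3 of 4 both times, with a median log2 difference of 2.60 with TMX and 1.87 without it, and Hbb, a chain of haemoglobin, at 4.12 and 3.63. The part of these markers in the results of the receptors was not tested.

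Cxcr3 was higher after injury by 0.58 with TMX (SE 0.16, adjusted p = 0.00495) and by 0.45 without it (SE 0.17, adjusted p = 0.0473) in limma. Its signal ran from 3.36 to 4.46 in SCI/TMX+ and from 3.07 to 3.65 in Sham/TMX+. It ran from 3.37 to 4.25 in SCI/TMX- and from 3.21 to 3.67 in Sham/TMX-, so that the ranges overlapped both times. Of 13 T and NK cell markers measured, 2 were higher at an adjusted p under 0.05 in each comparison in limma. This is near the share of all clusters, 14.3% higher with TMX and 12.8% without it. The 2 were Lck and Cd2 with TMX and Lck and Cd3d without it. Cd4, which microglia and macrophages also express in the rat, was lower by 0.72 and 1.60. The part of these markers in the result of Cxcr3 was not tested.

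Ackr3, which shares the ligand Cxcl12 with Cxcr4, ranged from 5.53 to 6.24 in SCI/TMX+ (median 5.68), against 4.86 to 5.14 in Sham/TMX+ (median 4.98). In SCI/TMX- the rats had 5.87, 5.41, 5.75, 5.51 and 5.70, against 4.83, 4.93, 5.39, 5.12 and 5.04 in Sham/TMX-. No injured rat overlapped with the sham rats, although without TMX the gap was only between 5.41 and 5.39. Ackr3 rose by 0.77 with TMX (SE 0.11, adjusted p = 5.94e-06) and by 0.59 without it (SE 0.12, adjusted p = 0.000587) in limma. Endothelium, smooth muscle and some neurons also express Ackr3, and the mean of 10 endothelial markers lay between 6.75 and 7.19 in the SCI rats and between 6.65 and 7.06 in the sham rats.

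Cxcr4 ranged from 3.23 to 3.85 in SCI/TMX+ (median 3.54), against 3.08 to 3.93 in Sham/TMX+ (median 3.69). In SCI/TMX- the rats had 4.14, 3.67, 4.09, 4.16 and 4.30, against 3.84, 4.09, 3.57, 3.27 and 3.84 in Sham/TMX-. The groups overlapped with and without TMX. The log2 difference was -0.08 with TMX (SE 0.15, adjusted p = 0.754) and 0.35 without it (SE 0.17, adjusted p = 0.127), and neither passed the test in limma. With array weights, 1 of 31 alternative settings, the difference without TMX was 0.46 with an adjusted p of 0.0486 by limma, and in the other 30 settings its adjusted p was not under 0.05. Of the 5 SCI/TMX- rats, replicates 1, 4 and 5 were above the highest Sham/TMX- rat.

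**Figure D3:**
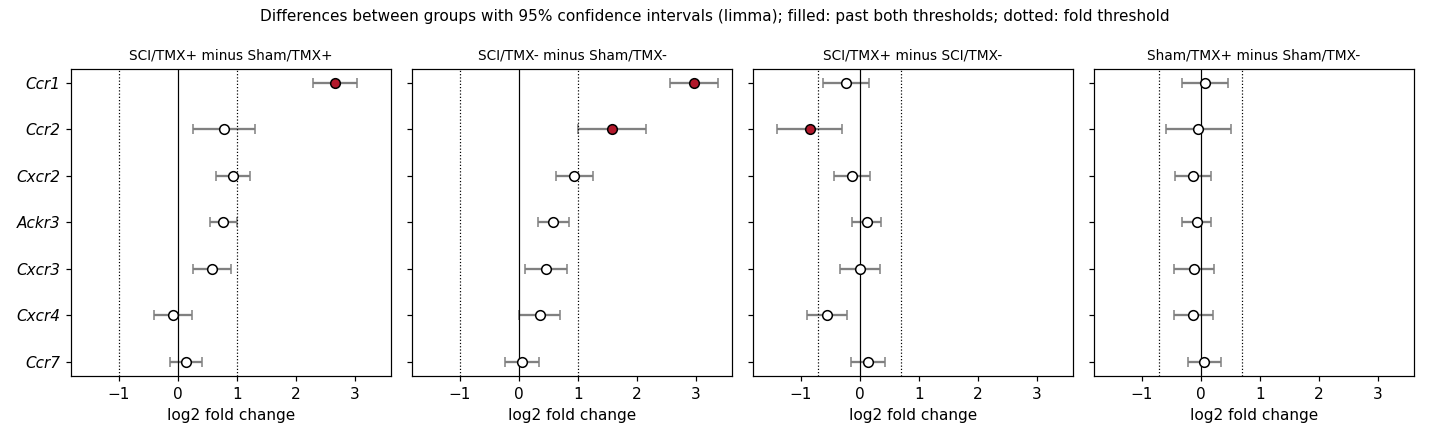
Log2 fold changes of the 7 receptors in 4 comparisons with 95% confidence intervals from limma, filled where both thresholds of the comparison were passed, with the fold thresholds dotted. Ccr1 is filled in both injury panels, Ccr2 in the panel of injury without TMX and in that of TMX in injured rats, and no receptor in that of TMX in sham rats.

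In sham rats no receptor passed the test between TMX+ and TMX-. The log2 differences lay between -0.13 for Cxcr2 and 0.07 for Ccr1, and the adjusted p-values of limma lay between 0.994 and 0.999. No receptor was called at the thresholds of the methods for TMX, which are 0.05 on the unadjusted p and 0.7 on the log2 fold change, where 0.0302% of all clusters were called, and no receptor had an unadjusted p under 0.05, where 5.46% of all clusters did. The widest interval was that of Ccr2, from -0.59 to 0.50 around -0.04.

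In injured rats, Ccr2 and Cxcr4 were lower in SCI/TMX+ than in SCI/TMX- at an unadjusted p under 0.05, where 4.51% of all clusters were lower. Ccr2 was called at the thresholds of the methods, 1 of 7, where 0.0302% of all clusters were called lower, and no receptor passed an adjusted p under 0.05, where 0.0216% of all clusters did. The comparison shares its arrays with both comparisons of injury above, so a high value of an SCI/TMX- rat raises the injury difference without TMX and lowers the TMX difference together.

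The mean signal of Ccr2 was 5.40 ± 0.29 in SCI/TMX+ (SD, n = 6) and 6.25 ± 0.97 in SCI/TMX- (SD, n = 5), with the values of each rat as given above. All 6 SCI/TMX+ rats lay below replicates 3, 4 and 5 of SCI/TMX-, and replicates 1 and 2 of SCI/TMX- lay within the range of SCI/TMX+. The log2 difference was -0.85 (SE 0.27, 95% confidence interval from -1.40 to -0.30), with an unadjusted p of 0.00392 and an adjusted p of 0.246 by limma. An exact permutation test over all 462 divisions of the 11 injured rats, added after the data were seen, gave a two-sided p of 0.0628, where the smallest p this design allows is 0.00216. Leaving out SCI/TMX- replicate 4 gave -0.58 and leaving out replicate 5 gave -0.61, both under the minimum fold change, so that the call was lost. Leaving out replicates 1 and 2 together, which stood apart on the second component, gave -1.42 with an adjusted p of 0.0238 by limma. This pair stood out in these same arrays and was also the lowest in Ccr2 among the SCI/TMX- rats. Leaving the pair out thus had to enlarge the difference and adds no support for it. The difference of Ccr2 thus depended on which of the 5 SCI/TMX- rats were kept.

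Cxcr4 averaged 3.52 ± 0.24 in SCI/TMX+ (SD, n = 6) and 4.07 ± 0.24 in SCI/TMX- (SD, n = 5). Of the 5 SCI/TMX- rats, 4 were above all 6 SCI/TMX+ rats, and replicate 2 of SCI/TMX-, at 3.67, lay among them. The log2 difference of -0.55 (SE 0.16, 95% confidence interval from -0.89 to -0.22) had an unadjusted p of 0.00225 and an adjusted p of 0.214 by limma, and it did not reach the minimum fold change. The exact permutation test, two-sided, gave p = 0.013. Its unadjusted p in limma was the smallest of the 7 receptors in this comparison.

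The other 5 receptors did not pass the test for TMX in injured rats. Ccr1 was 0.23 lower in SCI/TMX+ than in SCI/TMX- (95% confidence interval from -0.62 to 0.16, exact permutation p = 0.353, two-sided), Cxcr2 differed by -0.13, Ccr7 by 0.14, Ackr3 by 0.12 and Cxcr3 by 0.01. The levels of Ccr1 and Ccr2 had the same order over the 5 SCI/TMX- rats, with replicates 1, 2 and 3 below replicates 5 and 4. In SCI/TMX+ both were highest in replicate 1 and lowest in replicate 3.

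**Figure D4:**
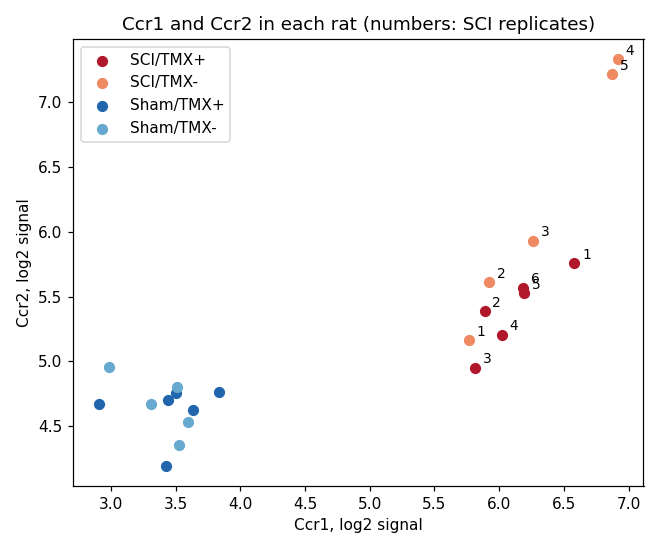
Ccr2 (y axis) against Ccr1 (x axis), both as log2 signal, with 1 point per rat and the replicate numbers of SCI rats beside the points. Replicates 4 and 5 of SCI/TMX- lie at Ccr1 of 6.92 and 6.87 and Ccr2 of 7.33 and 7.21, apart from the other 9 SCI rats, and the 11 sham rats lie below Ccr1 of 4.

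Monocyte and macrophage markers did not separate the injured groups. Their mean lay between 6.68 and 7.01 in SCI/TMX+ and between 6.61 and 7.01 in SCI/TMX-, and 0 of 14 were called for TMX, while 3 had an unadjusted p under 0.05 in limma. These were Cd163 and Plac8, at 0.34 and 0.37 higher in SCI/TMX+, and Clec4e, a receptor of activated macrophages and neutrophils, at 0.53 lower. At this level 4.51% of all clusters were lower, and the share higher is not given here. By rat, the mean of this list was 6.67, 6.61, 7.01, 6.99 and 6.95 in SCI/TMX- replicates 1 to 5. In this group the rats lowest in Ccr1 and Ccr2 were thus also lowest in these markers. The neutrophil list averaged 4.74, 4.49, 4.65, 4.98 and 4.95 in the same rats and was highest in replicates 4 and 5, as Ccr2 was. Of its 14 markers 1 was called for TMX, Lcn2, at 0.78 higher in SCI/TMX+, and the share of all clusters called higher is not given here. In sham rats 1 of the 14 was called for TMX, lower in Sham/TMX+, where 0.0302% of all clusters were called. The paper reports Lcn2 as lower with TMX in sham rats. Red blood cell markers averaged 7.35, 7.29, 7.83, 8.21 and 8.40 in SCI/TMX- replicates 1 to 5. They were likewise lowest in replicates 1 and 2 and highest in replicates 4 and 5, as Ccr1 and Ccr2 were. Between the groups their mean was 8.16 in SCI/TMX+, with rats from 7.69 to 8.34, and 7.81 in SCI/TMX-, with rats from 7.29 to 8.40, and 0 of 4 were called for TMX, with Alas2 at an unadjusted p of 0.0424 in limma. In SCI/TMX+ the match by rat was not the same, as Ccr1 and Ccr2 were lowest in replicate 3. There the monocyte and macrophage list was lowest in replicate 5 (6.68, with 6.69 in replicate 3). The neutrophil list was lowest in replicate 6 (4.68) and the red blood cell list in replicate 2 (7.69). The part of these cells in the Ccr2 difference was not tested.

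The interaction, which asks whether the TMX difference was another in injured than in sham rats, was called for 0 of the 7 receptors by limma at an adjusted p under 0.05, as for 0 of all clusters. On the unadjusted p, at the level of 0.05, it picked 6.84% of all clusters and 1 of the 7 receptors, Ccr2, at -0.80 (SE 0.38), whose adjusted p was 0.708 by limma. For Cxcr4 it was -0.43 (SE 0.23, adjusted p = 0.765 by limma) and for Ccr1 -0.31 (SE 0.27). The lower Ccr2 and Cxcr4 in TMX-treated injured rats were therefore not shown to differ from the effect in sham rats after adjustment.

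Put in order, the level of Ccr1 was highest in SCI/TMX-, followed by SCI/TMX+, Sham/TMX+ and Sham/TMX-, with a gap between ranges only between SCI/TMX+ and Sham/TMX+. Cxcr2 followed the order SCI/TMX-, SCI/TMX+, Sham/TMX- and Sham/TMX+, and Ackr3 the order SCI/TMX+, SCI/TMX-, Sham/TMX- and Sham/TMX+, both with the only gap between injured and sham rats. For Ccr2, SCI/TMX- was first and SCI/TMX+ second, but all neighbours overlapped. Cxcr4 was the only receptor with SCI/TMX+ as its lowest group, below SCI/TMX-, Sham/TMX- and Sham/TMX+, again with all neighbours overlapping. For Cxcr3 and Ccr7 all neighbours overlapped too.

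Ligands of Ccr1, Ccr2, Cxcr2, Cxcr3 and Ackr3 rose after injury. Of 18 ligands listed 17 were measured, and 9 were called higher and 0 lower in each comparison of injury. Of all clusters, 1.93% were called higher with TMX and 1.98% without it. On the adjusted p alone, 12 ligands with TMX and 13 without it were higher, against 14.3% and 12.8% of all clusters. The median log2 difference of the ligands was 1.36 with TMX and 1.44 without it, and that of all clusters was -0.02 and -0.01. Ccl2, the main ligand of Ccr2, was higher by 5.37 with TMX and 5.51 without it on the log2 scale. The other Ccr2 ligands Ccl7 and Ccl12 were higher by 3.64 and 1.36 with TMX, and by 3.48 and 1.65 without it. The Ccr1 ligands Ccl3 and Ccl6 were higher by 3.05 and 3.14 with TMX and by 3.53 and 3.81 without it, while Ccl9 was higher by 0.90 with TMX, under the fold threshold, and by 1.44 without it, past it.

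For Cxcr2, the ligand Cxcl2 was higher by 2.67 with TMX and 2.78 without it, and Cxcl1 by 1.54 and 0.84, so that Cxcl1 was called with TMX and not without it. The interaction of injury and TMX was not called for Cxcl1 (adjusted p = 0.678 by limma) or for Ccl9 (adjusted p = 0.83 by limma). Cxcl6 was higher by 0.75 and 0.77 without reaching the fold threshold. Among the Cxcr3 ligands, Cxcl11, which Ackr3 also binds, was higher by 3.73 with TMX and 2.96 without it, and Cxcl10 by 2.22 and 2.01, whereas Cxcl9 did not reach the fold threshold at 0.33 and 0.55. The Ccr7 ligands were not called: Ccl19 differed by 0.03 with TMX and by -0.34 without it (95% confidence interval from -0.65 to -0.02, adjusted p = 0.101 by limma) and Ccl21 by 0.10 and -0.01. Ccl5, a ligand of Ccr1, stayed under the fold threshold at 0.36 and 0.25.

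**Figure D5:**
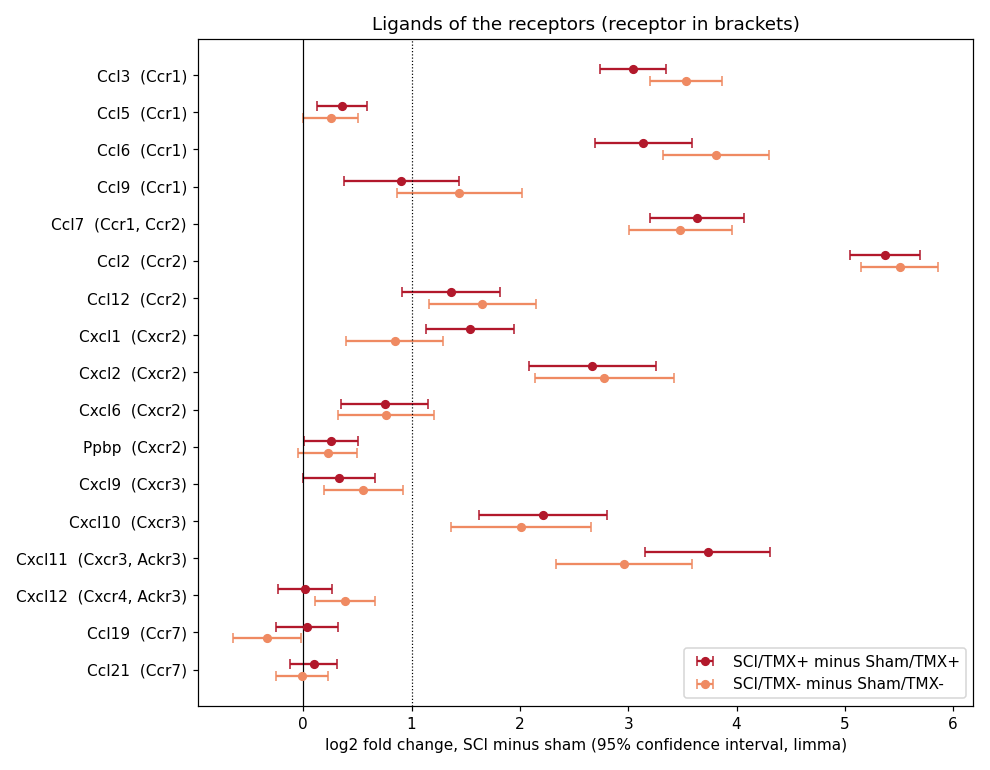
Log2 fold changes after injury of the 17 measured ligands, with TMX and without it, with 95% confidence intervals from limma, the receptor in brackets and the fold threshold of 1 dotted. Ccl2 is highest at 5.37 and 5.51, and the Ccr7 ligands Ccl19 and Ccl21 lie between -0.34 and 0.10.

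In the comparison of SCI/TMX+ with SCI/TMX-, 1 of the 17 ligands was called, and it was higher. The share of all clusters called higher in this comparison is not given here, so this count has no share to be read against. Cxcl11 averaged 6.44 in SCI/TMX+ and 5.70 in SCI/TMX-, a difference of 0.74 with an unadjusted p of 0.0185 and an adjusted p of 0.363 by limma, and the groups overlapped. Ccl2 differed by -0.07 (adjusted p = 0.922), with a mean of 9.95 in SCI/TMX+ and 10.02 in SCI/TMX-. Cxcl12, the ligand of Cxcr4 and Ackr3, averaged 7.59 in SCI/TMX+ and 7.89 in SCI/TMX-, lower by 0.30 at an unadjusted p of 0.0244 and an adjusted p of 0.384 by limma. After injury Cxcl12 differed by 0.01 with TMX (adjusted p = 0.947) and was higher by 0.38 without it (adjusted p = 0.028), and the interaction of -0.37 was not called (adjusted p = 0.73 by limma).

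Other chemokine receptors moved little. Of 16 listed 12 were measured, and none was called in any comparison. On the adjusted p alone, Cx3cr1, the fractalkine receptor of microglia, was lower by 0.38 with TMX and by 0.39 without it, with means of 6.85 in SCI/TMX+ and 7.23 in Sham/TMX+, and of 6.89 in SCI/TMX- and 7.28 in Sham/TMX-. The eosinophil receptor Ccr3, the neighbour of Ccr1 on chromosome 8, was higher by 0.38 with TMX (adjusted p = 0.038) and differed by 0.24 without it (adjusted p = 0.254). The B cell receptor Cxcr5 was higher by 0.42 and the scavenging receptor Ackr2 lower by 0.36, both without TMX, and with TMX they differed by 0.06 and 0.09. The interaction was not called for Cxcr5 (adjusted p = 0.772 by limma) or Ackr2 (adjusted p = 0.628 by limma). These 4 receptors were named after their values were seen.

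Among genes that carry or regulate the signal of chemokine receptors inside the cell, 17 of 21 listed were measured. The same 3 were called higher in both comparisons of injury, where 1.93% of all clusters were called higher with TMX and 1.98% without it. Rac2, the Rac of blood cells, was higher by 1.32 with TMX and 1.14 without it. Fgr, a Src-family kinase of myeloid cells, was higher by 1.12 and 1.30. Rgs1, which shortens G protein signals, was higher by 1.93 and 1.32. Gnb2, a G beta subunit, was higher by 0.44 and 0.46, under the fold threshold. On the adjusted p alone, 8 were higher and 1 lower with TMX, and 7 higher and 3 lower without it. Of all clusters, 14.3% were higher on this rule with TMX and 12.8% without it. The share of all clusters lower on this rule is not given here, so the counts lower have no share to be read against. Grk2 was lower by 0.28 and 0.42. Grk3 and Arrb2 were lower by 0.40 and 0.31 without TMX, and with TMX they differed by -0.16 and 0.02. The interaction was not called for Grk3 (adjusted p = 0.808 by limma) or Arrb2 (adjusted p = 0.588 by limma). None of the 17 was called for TMX in injured or in sham rats.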

How the data were processed

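RNA of 22 rats was measured on Clariom S rat arrays, 1 array per rat, and groups were taken from the labels. The authors deposited log2 values made with RMA in oligo 1.56, which corrects background, normalizes arrays by quantiles and summarises probes per transcript cluster. The genome build of the design is not given in the sources used here, and symbols come from the platform annotation (15049 of 23188 clusters had 1). Promoter windows come from RefSeq, build GRCr8.

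From the deposited log2 values, limma 3.58.1 in R 4.3.3 fitted 4 group means (18 residual degrees of freedom) and tested 5 contrasts, two-sided, with thresholds from the methods of the study. The number of arrays limits the precision. Named were the receptors, ligands that were called or bind a receptor described, up to 4 signalling genes with the largest moderated t and the most similar genes. Grk2, Grk3 and Arrb2, 4 other receptors and the markers were named after their values were seen. The receptors and lists were chosen with earlier results of these data known. The fit was tested on simulated data. Alternatives were other moderation, normalization, weights, filters, thresholds, a replicate block, single arrays left out and, added after the data were seen, an exact permutation test.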

Additional observations from a re-analysis of the deposited data

Results flagged for a closer look

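In 1 of the 28 combinations of receptor and group, a single rat lay far from the rest of its group by Dixon's criterion at the 95% level, and chance alone gives about 1 in 20. Ccr2 in Sham/TMX+ replicate 2 had a log2 signal of 4.199, while the next value of that group was 4.626 and the highest was 4.768.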

How the results depend on the processing

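Of 1092 values of the 35 single log2 differences under other settings, 1063 kept direction and call, 3 lost the call, 4 gained it and 22 changed sign, all 22 of differences that were not called. With no minimum fold change the count of receptors called was 5 for SCI/TMX+ against Sham/TMX+, 5 for SCI/TMX- against Sham/TMX- and 0 for SCI/TMX+ against SCI/TMX-. With the thresholds of injury and TMX exchanged it was 4 for SCI/TMX+ against Sham/TMX+, 0 for SCI/TMX+ against SCI/TMX- and 1 for the interaction (Ccr2). Leaving out 1 array at a time gave counts of 1 to 2 with TMX (2 without Sham/TMX+ replicate 6), 2 to 3 without TMX (3 without SCI/TMX- replicate 1), 0 to 1 for TMX in injured rats (0 without SCI/TMX- replicate 4 or 5), and 0 to 0 in sham rats and for the interaction. Cxcr2 without TMX also passed both thresholds with array weights (1.02) and without SCI/TMX- replicates 1 and 2 (1.08). The sign changes came with 1 array left out, over ranges of -0.067 to 0.19 for Ccr7 after injury without TMX, -0.027 to 0.18 for Ccr1, -0.12 to 0.040 for Ccr2 and -0.13 to 0.016 for Ackr3 with TMX in sham rats, -0.11 to 0.11 for Cxcr3 with TMX in injured rats, and -0.055 to 0.20 for Ccr7 and -0.092 to 0.11 for Cxcr2 in the interaction. With array medians subtracted, Cxcr3 with TMX in injured rats was -0.0014. The cause of these changes was not tested.

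Replicate numbers count the rats in order within each group, and the labels give no pairing. Of 31 same-numbered pairs, 5 had a correlation of deviations above 0.1 (range -0.21 to 0.23). Pairs with different numbers were not set beside them, so whether rats were paired cannot be judged from these values. With the replicate number as a block the counts called were 1 with TMX, 2 without TMX, 0 in sham rats, 1 for TMX in injured rats and 0 for the interaction, so the block changed no count. All 7 receptors fell under the filter on low signal, which kept 11594 clusters and so gave no value. Low signal limits what the array can show for Cxcr3, Cxcr4 and Ccr7.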

Other observations

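For each receptor, the named genes whose deviations from the group means ran most closely with it over the 22 arrays are given as a description, with Pearson's r and Spearman's rho. They were the highest of 15048 genes compared, so high values had to occur, and no test is given. For Ccr1 they were Zfp84 (r = 0.83, rho = 0.81), Efhd2 (0.82, 0.82) and Numb (0.81, 0.81). For Ccr2 they were Slc35e3 (r = 0.82, rho = 0.81), Nr4a2 (0.81, 0.49) and Faf2 (0.79, 0.70). For Cxcr2 they were Gpn3 (r = 0.77, rho = 0.81), Wnt7a (0.74, 0.80) and Or5k3 (0.73, 0.67), and for Cxcr3 Adam4l1 (0.77, 0.81), Aspn (0.76, 0.87) and Pklr (0.76, 0.81). For Cxcr4 they were Slc2a9 (r = 0.75, rho = 0.69), Fth1 (0.74, 0.68) and Hmgb2 (0.73, 0.66), and for Ackr3 Dock9 (0.77, 0.75), Or1f34 (0.74, 0.62) and Ptpn7 (0.74, 0.75). For Ccr7 they were Or13c25 (r = 0.78, rho = 0.63), Magi3 (0.75, 0.60) and Phox2a (0.75, 0.39).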
